A study of Drosophila melanogaster with 6 samples.

Results

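U is the sequence of the fly genome assembly that joins scaffolds with no known place on a chromosome, and 1074 of the 5179 HP2 regions of the combined list lay on it. Members were all regions whose sequence name is U, in the combined list and in the list of each replicate; Uextra, a further set of unplaced sequence, was not part of it and held 0 regions. The lists of replicates 1, 2 and 3 held 506 of 2488, 644 of 3132 and 488 of 3190 regions on U. HP2 was mapped by chromatin immunoprecipitation with sequencing (ChIP-seq) using the antibody Ab2-90, in embryos of the wild-type strain Oregon-R aged 14 to 16 h and fixed with 1.8% formaldehyde. There are 3 HP2 libraries and 3 inputs, all of that strain, genotype and stage, and per the labels the input with the same number served as background for each replicate list. All libraries come from whole embryos, so every value averages over all tissues present. Whether the replicates were separate embryo collections is not stated, and their spread may then be technical only.

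HP2 is a partner of HP1a, the protein that binds methylated histone H3 lysine 9 and packs pericentric DNA into heterochromatin. Scaffolds that could not be placed are rich in transposons and satellite DNA, which is also what pericentric heterochromatin is made of, and repeats are the reason that their position stayed unknown. A position on U is therefore a coordinate of the release (FlyBase release 5, 10049037 bp) and not a distance along a chromosome, and neighbours on U need not be neighbours in the nucleus. Reads from repeats can align to several copies; how they were treated is not given in the sources used here. No genome sequence or annotation of release 5 was used, so regions are described by position, length and score, without sequence or genes.

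Each region has a score from the authors. Its scale is not stated, but differences between frequent scores equalled log2 ratios of whole numbers up to 12 in 16, 10, 14 and 9 of 29 cases in the combined list and replicates 1, 2 and 3, against at most 1 of 29 for natural or decimal logarithms. Scores are therefore read as log2 values with an unknown zero in each list and are compared within a list only. Read totals are not among the values used here: depth is unknown, no interval could be set on the score of a region, and the intervals below cover counting error over regions only.

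HP2 regions were spread along nearly the whole of U but covered it unevenly, most densely in its first 2 Mb. In 101 bins of 100 kb, the combined list covered a median of 24.5% of a bin, with 11 bins above 50% and 1 bin at 0. The median bin was covered over 9.11%, 14.1% and 9.58% in replicates 1, 2 and 3, and 2, 2 and 5 bins held no region base. The most covered bin of the combined list, from 1300001 to 1400000, had 70.7% of its bases in regions, and 20.3%, 60.1% and 48.3% in replicates 1, 2 and 3. Of the 10 most covered bins of the combined list, 8 lay in the first 1.4 Mb; the others started at 2400001 and 5600001. Those 10 bins held 22.1% of all region bases on U, and the 10 most covered bins of each replicate list held 24.7%, 26.9% and 31.1% of that list's bases. The same bins tended to lead in each list: 6, 8 and 8 of the 10 leading bins of replicates 1, 2 and 3 were among the 10 of the combined list. Across the 101 bins, Spearman's rho of coverage was 0.90 between replicates 2 and 3, and lower for replicate 1, at 0.61 with replicate 3 and 0.58 with replicate 2. These correlations are descriptions, since bins are not independent and each list has 1 depth and 1 caller setting in all of its bins.

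**Figure D1:**
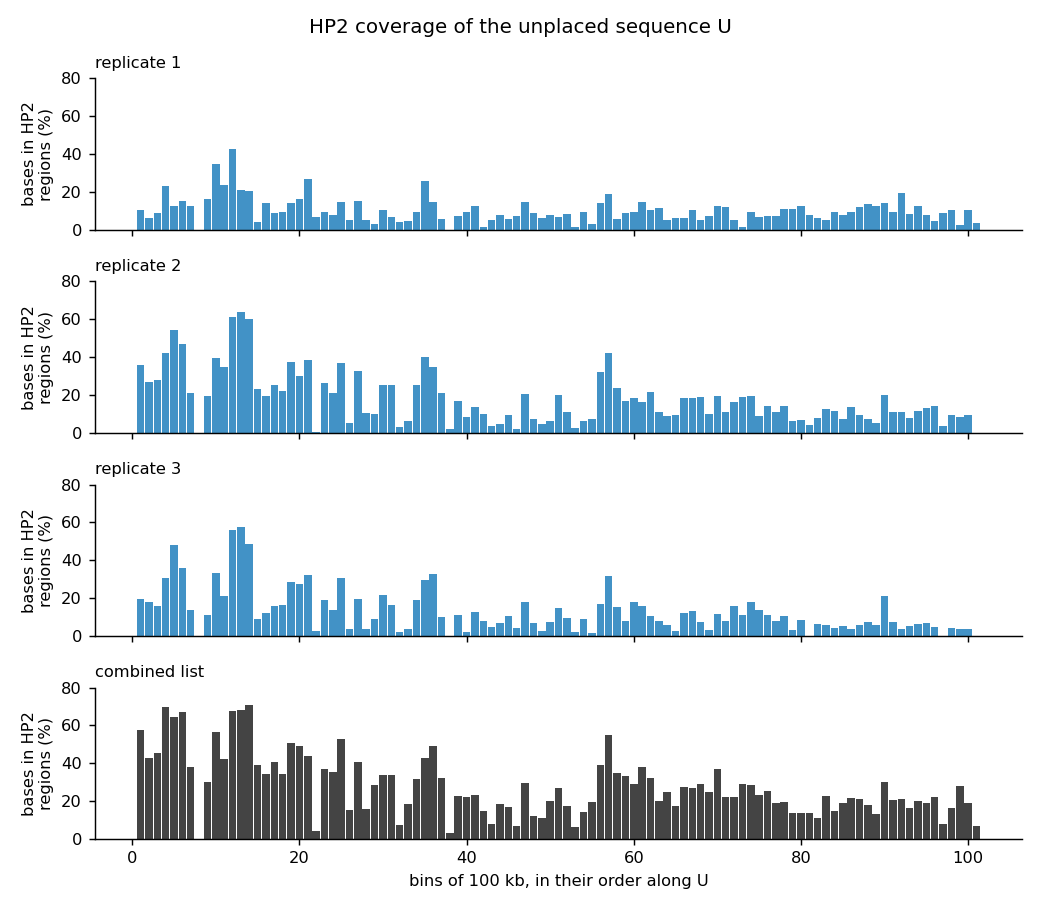
Percent of bases in HP2 regions (vertical axis) in bins of 100 kb in their order along U (horizontal axis), for the 3 replicate lists and the combined list; each bar is 1 bin. Coverage is highest among the first 14 bins in every list, the highest bin reaching 42.5%, 63.8% and 57.5% in replicates 1, 2 and 3 and 70.7% in the combined list.

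The densely covered stretch was interrupted by 1 long gap and followed by sparser sequence. The longest stretch of U without a combined region ran from 689751 to 818947, over 129.2 kb. It was empty in replicate 2 from 687181 to 820429 and in replicate 3 from 634833 to 818637, which are the longest gaps of those lists too. Replicate 1 also had 0 region bases in the bin from 700001 to 800000, but its longest gap, of 184.3 kb, lay elsewhere, from 3693706 to 3877987. The first 2 Mb of U were covered over 15.7%, 34.6% and 25.8% in replicates 1, 2 and 3, against 8.95%, 14.0% and 9.83% of the sequence beyond. The means were 25.4% ± 9.43 in the first 2 Mb and 10.9% ± 2.69 beyond (SD, n = 3). Coverage of the first 2 Mb was 1.76 to 2.63 times that of the remainder, and higher in 3 of 3 replicates. The 2 Mb limit was chosen after the profile had been seen, so no test is attached.

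Scores went the other way along U: the regions that covered the first 2 Mb were low in score relative to the remainder of U. Among all regions of replicates 1, 2 and 3, they stood at a median percentile of 45.9, 53.1 and 51.3, against 77.8, 77.5 and 78.0 beyond. In the combined list they stood at 63.0, against 81.7 beyond. Their median length was 1672, 2268 and 2107 bp in replicates 1, 2 and 3, against 1772, 2014 and 1991 bp beyond, so they were longer in replicates 2 and 3 and shorter in replicate 1. The median score there was 0.97, 0.72 and 0.79 in replicates 1, 2 and 3, against 1.18, 1.02 and 1.12 beyond 2 Mb. The difference was -0.21, -0.30 and -0.32, lower in 3 of 3 replicates. In the combined list the median was 0.67 against 1.00, and only 1 of the 53 U regions ranked among the 100 highest scores of that list lay in the first 2 Mb. In replicates 1, 2 and 3, 1, 4 and 4 of such regions lay there, against 29, 29 and 34 beyond. Support of combined regions by the replicates was higher in the first 2 Mb: all 3 replicate lists held 64 of 270 (23.7%), against 126 of 804 (15.7%) beyond and 21.0% of all regions of the combined list. Without replicate 1, 42.96% and 28.7% were found in both lists left. These combined regions were also longer, at a median of 2354 against 1901 bp, and 36 against 211 were under 1301 bp. The part of length in this difference was not tested. Of replicate 1 regions, 54.8% were found in both other lists, against 36.4% beyond. The gap was smaller in replicate 2, at 30.8% against 27.8%, and in replicate 3, at 40.5% against 38.1%. The sparsest 1 Mb stretch of the combined list was the fifth, with 71 regions over 16.1% of its bases, and the last 2 stretches had the highest median scores, 1.20 and 1.25.

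**Figure D2:**
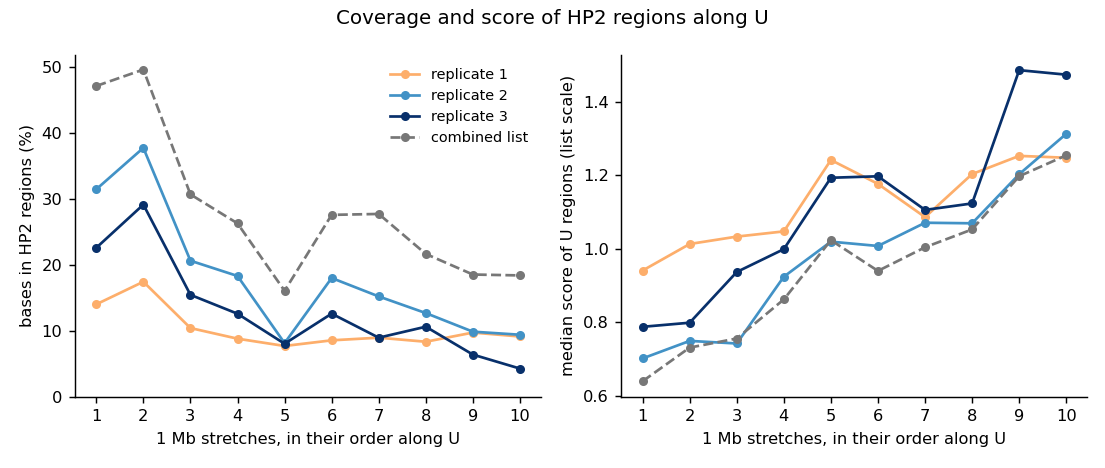
Coverage in percent of bases (left) and median score (right, each list on its own scale) of HP2 regions in 10 stretches of 1 Mb in their order along U, the last running on to the end. Lines join the values of 1 list; coverage is highest in the second stretch of each list, at 17.4%, 37.7%, 29.1% and 49.6% in replicates 1, 2, 3 and the combined list, while median scores are higher in the tenth stretch than in the first in each list.

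Many neighbouring regions lay within a few kb of each other. Gaps between neighbours had a median of 3225 bp in the combined list, and 285 of 1073 gaps (26.6%) were shorter than 1 kb. In replicates 1, 2 and 3 the median gaps were 10368, 6019 and 8053 bp, and 9.50%, 17.1% and 15.2% of gaps were under 1 kb. When regions at most 5 kb apart were joined, the 1074 combined regions formed 424 clusters, of which 195 were single regions and 50 had 5 or more. Clusters of at least 2 regions held 81.8% of the combined regions on U, and 49.6%, 64.6% and 60.9% of those of replicates 1, 2 and 3. The list with most regions per Mb tends to have the shortest gaps, so these values are not compared between lists. The median gap of the combined list was below the 5 kb join, so dense packing alone can give a high share in clusters. No reference for randomly placed regions was computed, so these shares do not show more grouping than density gives.

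The 5 clusters with most region bases all lay in the first 1.4 Mb and together held 359.2 kb, or 12.6% of the region bases of the combined list on U. The largest ran from 1154040 to 1262554: 14 combined regions filled 93.3% of its 108.5 kb, 9 of them were found in all 3 replicate lists and 0 in none. Replicates 1, 2 and 3 covered 37.9%, 90.1% and 81.0% of it with 19, 16 and 16 regions, so it was largely continuous in replicates 2 and 3 and broken up in replicate 1. The cluster from 342494 to 429822 held 12 regions over 85.5% of its 87.3 kb, and the replicates covered 30.5%, 70.2% and 52.8% of it. The cluster from 465476 to 558414 held 16 regions over 74.5% of 92.9 kb, with 18.7%, 58.1% and 44.1% in the replicates. The cluster from 1315012 to 1384442 held 10 regions over 87.1% of 69.4 kb, with 21.1%, 74.3% and 60.3%. The cluster from 564828 to 640100 held 16 regions over 71.1% of 75.3 kb, with 13.8%, 35.8% and 32.0%. In all 5 clusters replicate 1 covered least and replicate 2 most.

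Most regions on U were short. Lengths in the combined list ran from 1001 to 20623 bp with a median of 1963 bp, and the middle 50% lay between 1346 and 2969 bp. Medians were 1740, 2045 and 2017 bp in replicates 1, 2 and 3, and the longest regions measured 8062, 17984 and 18404 bp. Regions over 10 kb numbered 20 in the combined list, and 0, 14 and 7 in replicates 1, 2 and 3. Regions of 3 kb and over were 24.6% of combined members and held 50.9% of their bases. At the short end, 54 regions had the shortest length of 1001 bp, and 247 (23.0%) were shorter than 1301 bp, the shortest region of any replicate list apart from regions that ran past a sequence end.

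By an overlap of at least 1 bp, all 3 replicate lists held the 10 longest combined regions. In replicate 1, and likewise in replicate 3, 9 of the 10 were held as several pieces, whereas most were 1 piece in replicate 2. The share in all 3 lists was 21.0% of the whole combined list and 53.0% of U regions of 3 kb and over, and long regions meet this rule more easily. With an overlap of 50% of both regions, each of the 10 was found in only 1 or 2 lists. The longest ran from 487482 to 508104 with a score of 0.73; replicates 1, 2 and 3 covered 24.2%, 91.6% and 85.2% of it with 3, 2 and 4 regions. The region from 3432498 to 3450604 was 18.1 kb long, scored 1.27 and was covered over 76.0%, 99.3% and 92.8%. The region from 1193744 to 1211260 was 17.5 kb long, scored 0.81 and was covered over 43.1%, 99.6% and 81.4%. In these 3 replicate 2 covered most, replicate 3 less and replicate 1 least. The regions from 1164440 to 1180782 and from 901336 to 917596, both of 16.3 kb, scored 1.43 and 1.59. In the second of these replicate 1 covered most, at 87.0%, against 76.2% in replicate 2 and 73.8% in replicate 3. The remaining 5 started at 1331150, 2083746, 1248044, 1096590 and 416130, measured 13.7 to 15.2 kb and scored 0.76, 1.28, 0.80, 1.64 and 0.66. Of the 10, 5 were covered over less than 50% in replicate 1, and 0 were in replicates 2 and 3. Length did not go with a high score: the longest 10 scored 0.66 to 1.64, whereas the highest score on U was 3.95.

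The highest scores on U belonged to the shortest regions, and these were mostly absent from the replicate lists. Of the 16 combined regions on U with a score of at least 3, 14 were shorter than 1301 bp, 14 were found in no replicate list (33.5% of the whole combined list were), 1 in 1 list, 1 in 2 lists and 0 in all 3. The region from 2893500 to 2894500, of 1001 bp, scored 3.78 and was found in no list. The next 4 regions found in no list ran from 4237542 to 4238542, from 5144874 to 5145874, from 7821348 to 7822352 and from 8584882 to 8585882; they measured 1001 to 1005 bp and had the identical score of 3.59. That score occurred in 7 regions on U and in 12 of the whole combined list. The levels of 3.95, 3.78, 3.59 and 3.37 were separated by the log2 of 9/8, 8/7 and 7/6, and those of 3.37, 3.24 and 3.10 by the log2 of 12/11 and 11/10 (tolerance 1e-06), which are ratios of small whole numbers.

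**Figure D3:**
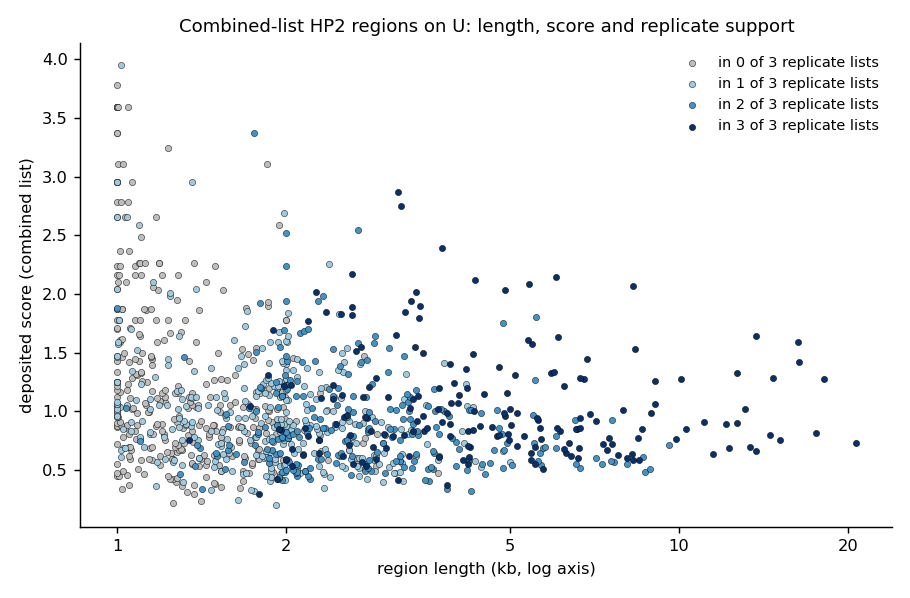
Length (horizontal, log axis) and deposited score (vertical) of the 1074 combined-list regions on U, 1 point each, shaded by the number of replicate lists holding the region. Points above a score of 3 lie at 1001 to 1847 bp and none is found in all 3 lists; regions found in all 3 lists have a median length of 4242 bp and reach a score of 2.87.

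Replicate support was counted with an overlap of at least 1 bp. The combined list covers the same replicates, so support by them is a description and not an independent check. Of the 1074 combined regions on U, 190 were found in all 3 replicate lists, or 17.7% (95% Wilson interval 15.5 to 20.1%), against 21.0% of the whole list. Another 345 were found in none, or 32.1% (29.4 to 35.0%), against 33.5% of the whole list. Both shares are near those of the list as a whole. With an overlap of at least 50% of both regions, 65 (6.05%) were found in all 3, against 8.73% of the whole list. The 190 regions in all 3 lists held 36.2% of the region bases on U, and the 345 in none held 17.0%. Replicate 2 carried most of the support: 182 regions were found in replicate 2 alone and 157 in replicates 2 and 3, while 67 were found in replicate 1 alone, 48 in replicate 3 alone, 69 in replicates 1 and 2, and 16 in replicates 1 and 3. Without replicate 1, 32.3% were found in both lists left, and without replicate 2, 49.1% were found in neither. Neither share can fall when a list is left out. Median lengths were 1261, 1885, 2600 and 4242 bp for regions in 0, 1, 2 and 3 lists. Median scores had no such order, at 1.02, 0.90, 0.79 and 0.91. The median distance of the regions in no list to the nearest replicate region was 2.30 kb, 107 lay within 1 kb and 96 lay beyond 5 kb. No distance for other sequence of U was computed, so whether they lay nearer than that was not tested.

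Split by score alone, support on U did not climb with the score. In the score quartiles of U regions from lowest to top, 11.9%, 22.3%, 17.9% and 18.6% were found in all 3 lists and 28.0%, 26.4%, 31.3% and 42.8% in none. The top quartile thus held both more regions found in all 3 lists and more found in none than the lowest. The differences, top minus lowest, were 6.65 percentage points for all 3 (95% Newcombe interval from the Wilson limits, 0.55 to 12.7) and 14.8 points for none (6.69 to 22.6). Both intervals take regions as independent, though regions share the libraries and many lie in clusters, so they do not cover the spread between replicates. Leaving out replicate 1 turned the first difference round: 37.7%, 38.7%, 29.5% and 23.4% were found in both replicates 2 and 3. That is a top minus lowest difference of -14.3 points, outside the first interval.

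Within length classes the picture was different. Among the 264 regions of 3 kb and over, 27.0%, 58.0%, 55.6% and 82.6% were found in all 3 lists from the lowest to the top quartile, with 74, 81, 63 and 46 regions. The 95% Wilson intervals were 18.2 to 38.1% for the lowest and 69.3 to 90.9% for the top quartile. Without replicate 1 the shares found in both lists left were 74.3%, 85.2%, 84.1% and 93.5%, so the low value of the lowest quartile rested on replicate 1; without replicate 2 or 3 they were within 8 percentage points of those for all 3. Only 2 of these 264 were found in no list. All 3 lists held 53.0% of them, against 63.8% of regions of 3 kb and over in mapped heterochromatin and 79.4% on the long arms. The share was 76.9% on chromosome 4, 55.6% on X and 50.0% of the 8 such regions of the Y scaffold. Among the 563 regions from 1301 bp to under 3 kb the shares in all 3 lists were 7.50%, 8.90%, 8.90% and 10.8%; without replicate 1, 28.1%, 24.0%, 17.8% and 18.0% were in both lists left. Without replicate 2 they were 11.3%, 10.96%, 10.96% and 11.7%, and without replicate 3 they were 10.6%, 19.2%, 17.8% and 30.6%, so the order across quartiles depended on the replicate left out. Among the 247 regions shorter than 1301 bp, 0 were found in all 3 lists, which allows a share of up to 1.21% at 3 counts of the total (upper 95% Wilson limit 1.53%), and 75.7% were found in none. Short regions made up 112 of the 269 regions of the top quartile but 34 of the 268 of the lowest. Short regions were seldom supported elsewhere too: among those under 1301 bp, 75.7% on U, 66.7% in mapped heterochromatin and 83.0% on the long arms were in no list, and 0 were in all 3 in each of them. Their median score was 1.18 on U, 0.80 in mapped heterochromatin and 0.46 on the long arms.

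**Figure D4:**
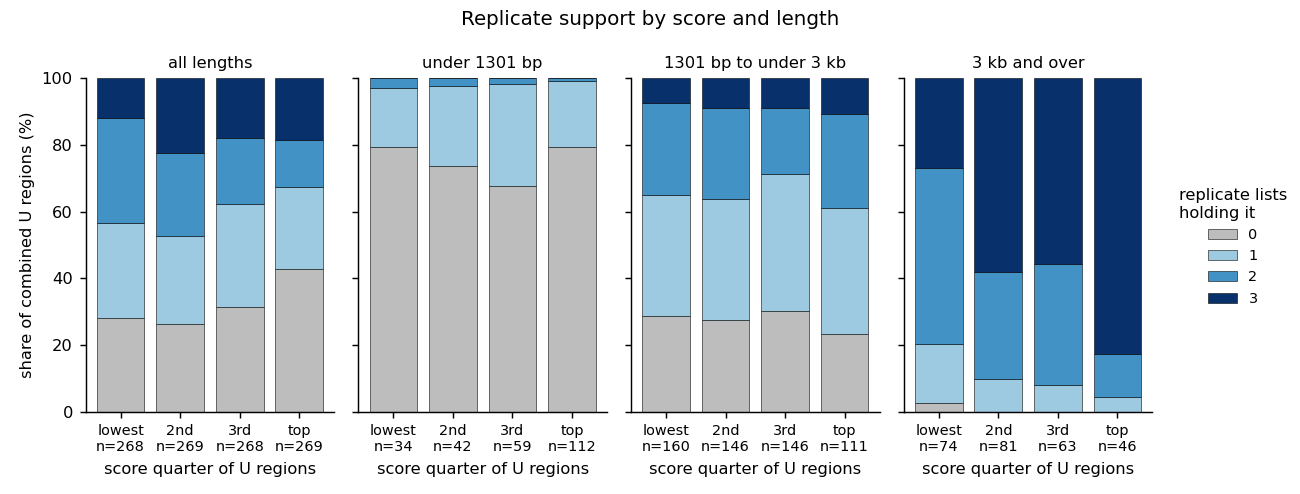
Share of combined-list regions on U (vertical, percent) found in 0, 1, 2 or 3 replicate lists, for score quartiles from lowest to top (horizontal, with the number of regions), over all lengths and in 3 length classes. The share in all 3 lists goes from 27.0% to 82.6% across quartiles at 3 kb and over, and is 0 in each quartile of the regions under 1301 bp.

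Exact repeats of a score moved with support. On U, 481 combined regions (44.8%) had a score that another region of the list also had, to all deposited digits. The share was 24.5% in mapped heterochromatin, 34.4% on the long arms, 26.5% on chromosome 4, 43.4% on X and 44.4% of the 27 regions of the Y scaffold, so those of X and Y were near that of U. Tied scores were held by 71.9%, 49.8%, 24.4% and 13.7% of the U regions found in 0, 1, 2 and 3 lists. They were held by 29.9%, 36.8%, 50.4% and 62.1% of the regions in the score quartiles from lowest to top. Among the 593 U regions with a score of their own, 13.8%, 32.4%, 28.6% and 44.1% of the quartiles were found in all 3 lists, and 19.7%, 16.5%, 19.5% and 5.88% in none. Among the 481 tied regions, 5.41% were found in all 3 lists and 51.6% in none. Tied regions were also shorter: their median length was 1443 bp, and that of untied ones 2573 bp; the part of length and of ties in the support was not tested separately.

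The 10 highest-scoring combined regions found in all 3 lists measured 2625 to 8283 bp, 9 of them 3 kb or more, and mostly ranked high in each replicate. They were chosen by presence in all 3 lists and by score in a list of the same replicates. High ranks in the replicates are favoured by that choice and are no separate support. The first, from 9339780 to 9342948, scored 2.87 in the combined list. It was 1 region in each replicate list, with scores of 1.88, 2.94 and 2.93 in replicates 1, 2 and 3, above 98.5%, 99.9% and 99.7% of the regions of those lists. The second, from 4667056 to 4670254, scored 2.75 and stood above 95.1%, 99.9% and 99.3%. The third, from 5131510 to 5135304, scored 2.39 and was the one that ranked highest in replicate 1, with a score of 2.28 above 99.9% of that list. The region from 8900080 to 8902704 scored 2.17, and those from 2899558 to 2905590 and from 3877998 to 3882332 scored 2.14 and 2.12. In all 6 of these, regions of each replicate covered 63.6% to 100.0% of the combined region.

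Of the last 4, 3 were covered over less than 60% by at least 1 replicate. The region from 891408 to 896816 scored 2.08; it was fully covered in replicate 1, where it stood above 88.7% of the list, and over 46.3% in replicate 3. The region from 5615854 to 5624136, the longest of the 10 at 8.28 kb, scored 2.07 and was covered over 92.4%, 97.9% and 98.1%. The region from 8644754 to 8649666 scored 2.04 and was covered over 65.4%, 79.7% and 57.1%. The region from 9291334 to 9294734 scored 2.02 and was covered over 48.1%, 72.8% and 60.0%. Its rank differed most: it stood above 23.9% of the regions of replicate 1, 98.6% of those of replicate 2 and 89.3% of those of replicate 3. Of the 10, 8 were still found in all 3 lists with an overlap of 50% of both regions. The share was 8.73% of the whole combined list, which was not chosen by presence in all 3.

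Seen from the replicate lists, U had many high-scoring regions, and fewer than 55% of these were found in both other lists. Among the 100 highest scores of each list, ties included, U held 30, 33 and 38 regions in replicates 1, 2 and 3, while it held 20.3%, 20.6% and 15.3% of all regions. Of these, 14 of 30, 17 of 33 and 17 of 38 were found in both other lists, and 13, 3 and 14 in neither; over all regions of the lists, 71.9%, 37.5% and 39.9% were found in both. Of all U regions of replicates 1, 2 and 3, 39.9%, 31.8% and 15.2% were found in neither. These shares were 8.86%, 14.5% and 6.62% in mapped heterochromatin, and 16.6%, 20.5% and 26.1% on the long arms. They were 23.9%, 27.6% and 34.2% on X, so in replicate 3 U lay below the long arms and X. Chromosome 4 had 0%, 23.8% and 9.92%, and the Y scaffold 36.4%, 47.1% and 18.2% of its 11, 17 and 11 regions. Of the long-arm regions among the 100 highest scores, 37 of 37, 38 of 39 and 27 of 33 were found in both other lists. In mapped heterochromatin these were 18 of 18, 18 of 25 and 14 of 24. In replicates 2 and 3 the share of U regions found in both other lists was highest in the top quartile. From lowest to top it was 16.1%, 31.7%, 29.8% and 37.3% in replicate 2, and 24.6%, 44.3%, 40.2% and 46.7% in replicate 3. In replicate 1 the order was the other way, at 54.0%, 45.7%, 33.3% and 33.9%. The share found in neither was 29.4%, 39.4%, 45.2% and 45.7% in replicate 1, and 34.2%, 26.1%, 34.2% and 32.9% in replicate 2. In replicate 3 it was 8.20%, 9.84%, 13.1% and 29.5%, so it too was highest in the top quartile. Among regions of 3 kb and over, the shares went from 27.6% to 86.4% across the quartiles of replicate 2 and from 30.8% to 92.9% across those of replicate 3. Replicate 1 had only 54 such regions, of which 81.5% were found in both other lists.

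Replicate 1 also had most U regions outside the combined list. The combined list held 72.9% of the replicate 1 regions on U, against 95.1% of those in mapped heterochromatin and 88.1% on the long arms. For replicate 2 the values were 99.8%, 100.0% and 99.9%, and for replicate 3 they were 92.8%, 98.3% and 88.8%. Of the 137 replicate 1 regions on U outside the combined list, 130 were found in neither other replicate list. Their median length was 1544 bp and median score 1.18, against 1840 bp and 1.08 for replicate 1 regions inside it. The 35 of replicate 3 had medians of 1552 bp and 1.56, against 2044 bp and 0.95 inside, and 12 of them were among the 100 highest scores of that list.

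Where regions of 2 replicates overlapped on U, their scores ranked alike. Across the 367 replicate 2 regions that overlapped replicate 3, Spearman's rho was 0.85. It was 0.64 for replicate 1 with replicate 2 (279 pairs) and 0.64 with replicate 3 (236 pairs). In mapped heterochromatin the values were 0.76, 0.33 and 0.39, over 696, 707 and 674 pairs. On the long arms they were 0.84, 0.58 and 0.59, close to those of U. With an overlap of 50% of both regions they were 0.88, 0.71 and 0.74 on U, 0.87, 0.52 and 0.61 in mapped heterochromatin and 0.84, 0.66 and 0.70 on the long arms. These are descriptions across regions, which share libraries and can share a partner. They concern only the regions that overlapped, which on U were 55.1% of replicate 1 regions for replicate 2 and 46.6% for replicate 3.

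U was then set against mapped heterochromatin (the scaffolds XHet, 2LHet, 2RHet, 3LHet and 3RHet) and the long arms (2L, 2R, 3L and 3R) within each replicate list. Its regions covered 13.8% ± 3.95 of U, against 41.0% ± 14.7 of mapped heterochromatin and 4.45% ± 1.30 of the long arms (SD, n = 3). Median lengths averaged 1934 ± 168 bp on U, against 2532 ± 590 bp in mapped heterochromatin and 1977 ± 5.13 bp on the long arms (SD, n = 3). The median score on U exceeded that of mapped heterochromatin by 0.12, 0.13 and 0.10 and that of the long arms by 0.15, 0.37 and 0.33 in replicates 1, 2 and 3. On the rank scale of each list, the median U region stood at percentile 70.4, 70.5 and 70.2 in the 3 replicates. Mapped heterochromatin stood at 48.7, 59.5 and 62.0, and the long arms at 42.9, 28.7 and 33.1. Chromosome 4 stood at 51.3, 48.0 and 60.1, and X at 50.3, 34.3 and 38.2. High scores were not particular to U: the 11, 17 and 11 regions of the Y scaffold stood higher, at 84.4, 81.4 and 91.2. U regions were found less often in both other lists than those of mapped heterochromatin, at 41.7%, 28.7% and 38.9% against 81.3%, 46.2% and 50.8%. Against the long arms, with 77.7%, 38.4% and 35.7%, the share was lower in replicates 1 and 2 and higher in replicate 3.

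Of these 8 differences, 6 had the same sign in 3 of 3 replicates: coverage, score and, against mapped heterochromatin, length and sharing. A two-sided exact permutation test that flips signs over the 3 lists gave p = 0.25 for each of the 6, the smallest p that 3 lists allow, and 0.33 after Benjamini-Hochberg adjustment over the 8. Length and sharing against the long arms gave exact sign-flip p of 1 and 0.5 (adjusted 1 and 0.57). So none passed the threshold of 0.05, which this design cannot reach. Each sharing value is computed from all 3 lists, so the 3 sharing differences are not fully independent, and the test treats them as if they were. The mean difference in sharing between U and mapped heterochromatin was -23.0 percentage points, -14.7 without replicate 1, and 4.05 with an overlap of 50% of both regions, where it changed sign. The mean difference in median length from mapped heterochromatin was -598 bp, and -357 bp without replicate 2.

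**Figure D5:**
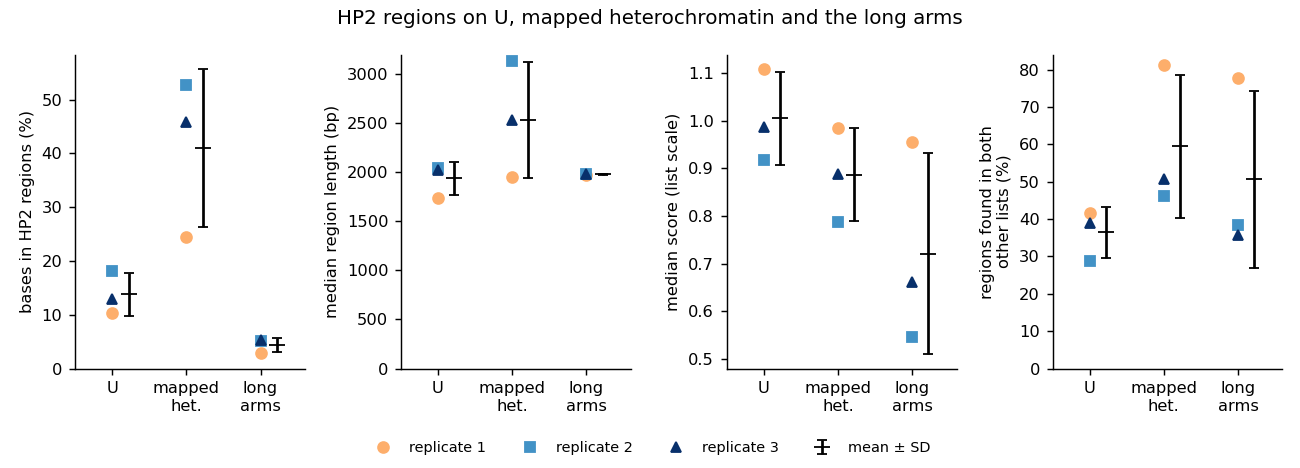
Coverage, median region length, median score and share of regions found in both other lists for U, mapped heterochromatin (mapped het.) and the long arms; coloured symbols are the 3 replicates, and black marks give their mean ± SD. U lies below mapped heterochromatin in coverage, length and sharing and above it in score in each replicate.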

How the data were processed

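The files are lists of HP2-enriched regions, 1 for each of 3 immunoprecipitation libraries and 1 for the replicate set; groups and numbers come from the titles, and the 3 inputs have no values analysed here. Each region carries a score that the authors deposited, and per the file headers positions are on FlyBase release 5. The submitters' processing notes name Bowtie 0.12.7; caller, threshold and the making of the replicate set are not stated in the sources used here. A repeat that occurs in several copies can gain or lose reads by the way multiple alignments are handled, which bears on sequence as rich in repeats as U.

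Regions were taken by the sequence name U; 0 of them ran past its end. Lengths, unions of bases, gaps, clusters (gaps of at most 5 kb), bins of 100 kb, overlaps (at least 1 bp), score quartiles over U regions and ties were computed with Python 3.11.15, numpy 2.4.6, pandas 2.3.3 and scipy 1.17.1, and figures with matplotlib 3.10.9. The code returned the planted value in 23 of 23 checks on simulated data. Differences between U and other sequence were tested over the 3 replicates with an exact sign-flip permutation test, Benjamini-Hochberg adjusted over 8. Regions were named by rule: the 10 highest scores found in all 3 lists, the 5 highest found in none, the 10 longest, the 5 clusters with most bases and the longest gap. Members and rules were chosen with earlier results of these data known. Alternatives were an overlap of 50% of both regions, higher scores only, other gaps and bins, the combined list, and leaving out each replicate.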

Additional observations from a re-analysis of the deposited data

How the results depend on the processing

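No paired analysis was possible because the inputs have no values here to pair with the HP2 lists; differences between U and other sequence were already taken within each replicate list. Of 50 alternatives for the differences between U and the other parts, 47 kept the direction. Where all 3 replicates had the same sign, leaving 1 out could not reverse the mean, so the direction in those settings says nothing on stability. Length against the long arms reversed in the combined list (272 bp) and ranged from -96.3 to 51.0 bp when a replicate was left out; sharing against mapped heterochromatin reversed at 50% overlap of both regions (4.05 points). The share in all 3 lists was 6.05% with 50% overlap, 23.0% without regions under 1301 bp and 27.7% without tied scores; with 1 replicate left out it was 19.2% to 32.3%, the highest without replicate 1. The share in none was 40.5%, 19.1% and 16.4% under the same 3 settings, 35.3% beyond the first 2 Mb, and 36.6% to 49.1% with 1 replicate left out, the highest without replicate 2. Leaving out a replicate cannot lower either share, so only the size of those changes is informative. Leaving out the regions under 1301 bp cannot lower the share in all 3 lists, because 0 of them were in all 3. The top minus lowest quartile difference was 16.8 points in all 3 and -2.999 in none without regions under 1301 bp, and 29.5 and -8.86 without tied scores; with 1 replicate left out it was -14.3 to 12.2 for all 3 and 9.49 to 20.3 for none. Clusters numbered 656 with gaps of 2 kb and 228 with 10 kb. The 10 most covered bins held 26.9% in replicate 2 and 31.1% in replicate 3. Ties fell to 34.5% without regions under 1301 bp. The settings without ties, without the first 2 Mb and without a replicate within length classes were chosen after seeing the data. Beyond these fixed directions and the smaller numbers that some settings leave, the cause was not tested. Depth is unknown, so the precision of single scores cannot be stated.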
